A study of Mus musculus with 7 samples.

Results

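Histone deacetylases take acetyl groups off histone tails, and the SIN3 proteins are scaffolds that bring them to DNA together with transcription factors. ATP-dependent remodelers of the SWI/SNF, CHD and INO80 families move, evict or exchange nucleosomes. In oligodendrocyte progenitors, HDAC1 and HDAC2 are known as a redundant pair required for differentiation, and BRG1 (the product of Smarca4), CHD7 and CHD8 are known to open chromatin at genes of the myelinating cell. Krüppel-like factors of the family that includes KLF13 carry a domain that binds SIN3 proteins. Transcript levels of 10 genes from these groups are described here, taken by name as SIN3/HDAC corepressors and chromatin remodelers with known roles in oligodendrocyte differentiation. They were the deacetylase genes Hdac1, Hdac2, Hdac3 and Hdac11, the scaffold genes Sin3a and Sin3b, and the remodeler genes Smarca4, Chd7, Chd8 and Ep400. Each of the 10 matched a single identifier among the 49315 of the count data, and all 10 passed the filter on low counts that left 18352 genes for testing.

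RNA-seq was performed on total RNA of primary mouse oligodendroglia derived from brain, with 4 control libraries of genotype Klf13-wt and 3 knockout libraries of genotype Klf13-ko. All cultures were mouse oligodendrocyte progenitors that had been shaken off mixed glia, depleted of microglia and then kept for 6 days under differentiating conditions in SATO medium, which in the study's methods contains thyroid hormone, so that control and knockout cells shared this treatment. The Klf13 deletion was constitutive and present in all tissues of the donor mice, which were newborns of both sexes, and the libraries were numbered as biological replicates. The comparison asks how the absence of KLF13 changes transcript levels in these cells. The strain and the number of pups per culture are not given in the sources used here.

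The libraries held 24507471 to 59596479 counts on genes. The share on genes that collect ribosomal RNA reads was 6.03% in control replicate 2, 6.50% in control replicate 3 and 7.56% in knockout replicate 2. It was 14.1% to 18.0% in the other libraries, so that knockout replicate 2 was the only knockout library with a low share. Whether calls lost without this library depend on that share was not tested. Klf13 itself fell to 7.76% of its control level. It went from 10670 to 12000 normalized counts in the controls to 801.6, 876.4 and 961.2 in the knockouts. Markers of differentiated oligodendrocytes were present throughout, but their summed level was 267600 to 303000 normalized counts in the knockouts against 984500 to 1166000 in the controls, and 6 of 6 fell. Of the progenitor markers 2 of 5 rose (171100 to 172600 against 135400 to 145100), as did 5 of 5 astrocyte markers (167600 to 199500 against 80060 to 118300) and 5 of 5 neuron markers (10570 to 16020 against 4964 to 6729). Microglia markers (0 of 5 changed) summed to 52510 in control replicate 3 and to 9675 to 21660 elsewhere. Fibroblast markers (1 of 5 fell) summed to 41240 and 31210 in control replicates 3 and 4 and to 2121 to 9600 elsewhere, while 1 of 3 tested endothelial markers fell (216.5 to 302.4 against 257.4 to 507.5) and Cldn5 was at or near 0 (at most 0.687). In these bulk samples, a smaller number of cells of a type and less RNA per cell cannot be told apart. The part of these markers in the results for the chromatin genes was not tested.

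Among the 10 genes, Hdac2 and Sin3b rose in the knockout (to 118% and 117% of the control level), and none fell. The call was made by edgeR's quasi-likelihood test at a Benjamini-Hochberg adjusted p of at most 0.05 over all genes tested, by which 11.6% of all genes rose and 12.2% fell. DESeq2 and limma also called 2 genes higher and 0 lower, and Hdac1 (lower) and Chd7 (higher) had an unadjusted p under 0.05 in edgeR. With the replicate number as a block 1 of the 10 rose. The number that rose was 0 without knockout replicate 1, without knockout replicate 2, with library totals alone or without the filter on low counts. Without control replicate 3, 1 fell (Hdac1). None of the 10 passed a log2 fold change of 1 as well, which 3.97% of all genes did upwards and 3.08% downwards. All knockout libraries lay above all control libraries for 4 of the 10 (Hdac2, Hdac3, Sin3b and Chd7), a pattern found in 18.3% of all genes, and below them for 0 of the 10, against 18.0% of all genes. The log2 fold change was above 0 for 8 of the 10 and below 0 for Hdac1 and Hdac11, and its median was 0.09, beside -0.0037 over all genes tested. Of all calls, 51.4% were downwards, and this share was 38.6% when library sizes were taken without the genes that collect ribosomal RNA reads and the 100 most abundant genes, and 60.8% without knockout replicate 2.

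**Figure D1:**
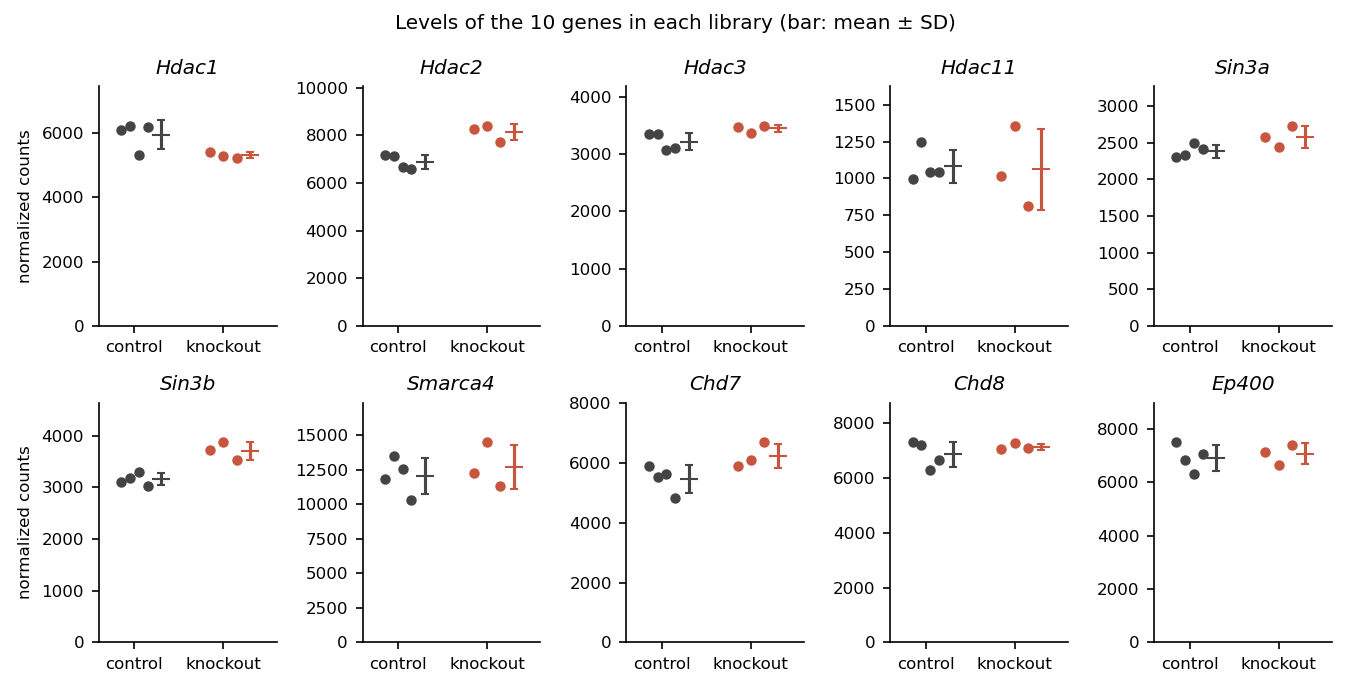
Normalized counts (y axes, each starting at 0) of the 10 genes in the 4 control and 3 knockout libraries, 1 point per library, with the mean ± SD of each group beside the points. The groups are apart for Hdac2 (6563 to 7153 against 7733 to 8388) and Sin3b (3031 to 3299 against 3522 to 3870), whereas Hdac11 spans 811.9 to 1356 in the knockouts alone.

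Sequences upstream of the start sites were examined because KLF factors bind GC-rich and CACCC-like elements. The 250 bases before each RefSeq start site (GRCm38.p6) were searched on both strands for the hexamer ACGCCC, for its forms with another base in the third position, namely ACACCC together with ACTCCC, and for the same series with a leading C, namely CCGCCC followed by CCACCC as well as CCTCCC. These matches can overlap one another where they run together, and they are in capitals below. The windows of Hdac2 and Sin3b are shown because these genes rose, and that of Smarca4 because it held 6 matches, as many as any window of these genes, while its transcript level did not pass the test. That of Hdac2 is chr10:36974294-36974543 (plus strand), that of Sin3b is chr8:72723020-72723269 (plus strand) and that of Smarca4 is chr9:21615919-21616168 (plus strand).
Hdac2: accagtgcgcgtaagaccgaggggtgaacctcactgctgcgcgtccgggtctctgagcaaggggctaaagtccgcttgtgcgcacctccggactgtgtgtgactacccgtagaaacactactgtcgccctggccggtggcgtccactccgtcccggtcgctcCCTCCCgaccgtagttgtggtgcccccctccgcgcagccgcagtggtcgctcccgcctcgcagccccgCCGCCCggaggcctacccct
Sin3b: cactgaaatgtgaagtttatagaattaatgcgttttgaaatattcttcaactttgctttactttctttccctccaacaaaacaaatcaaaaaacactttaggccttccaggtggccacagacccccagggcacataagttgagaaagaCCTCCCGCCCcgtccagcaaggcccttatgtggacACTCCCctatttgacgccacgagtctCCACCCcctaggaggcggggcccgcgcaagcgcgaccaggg
Smarca4: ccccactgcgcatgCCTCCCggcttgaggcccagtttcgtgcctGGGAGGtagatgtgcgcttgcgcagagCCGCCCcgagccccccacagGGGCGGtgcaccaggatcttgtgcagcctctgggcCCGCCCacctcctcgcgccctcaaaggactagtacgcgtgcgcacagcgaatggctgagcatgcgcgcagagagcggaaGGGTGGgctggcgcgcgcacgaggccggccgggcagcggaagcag

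The Hdac2 window held 2 matches, a number reached or passed by 49.5% of the 32851 windows of this length in the table. That of Sin3b held 4, reached or passed by 21.3% of windows, and that of Smarca4 held 6, reached or passed by 8.2%. Windows of Chd8 and Ep400 held 4 each, that of Hdac11 held 5 (13.5% of windows), and the start sites listed for Sin3a had 2 and 6. The number of matches follows base composition: 72.6% of all windows held at least 1 match with a median of 1, while the 8862 windows with over 60% G and C had a median of 4, and Hdac2 and Smarca4 had 68.8% and 70.8% G and C against 50.8% for Sin3b. Windows of Hdac1, Hdac3 and Chd7 were not used here. A match is a run of letters and not a bound site.

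Within the class I deacetylases, Hdac2 rose, while its close relative Hdac1 did not pass the test. Hdac2 lies on chromosome 10 of GRCm38 (36974544 to 37001889, plus strand) and, like the other members, is annotated as protein-coding. It had 7153, 7125, 6670 and 6563 normalized counts in control replicates 1 to 4 and 8265, 8388 and 7733 in knockout replicates 1 to 3. Every knockout library was above every control library, with the highest level in knockout replicate 2 and the lowest in control replicate 4. These libraries also had the highest and the lowest sums of neuron markers (16020 and 4964) and of astrocyte markers (199500 and 80060). The mean went from 6878 ± 306 (SD, n = 4) to 8129 ± 348 (SD, n = 3), which is 118% of the control, with a log2 fold change of 0.24 (SE 0.057, 95% confidence interval 0.11 to 0.38, adjusted p = 0.0227 by edgeR's quasi-likelihood test). The call was lost without knockout replicate 1 (adjusted p = 0.0603 by the same edgeR test), without knockout replicate 2 (0.0849) and without control replicates 3 and 4 together (0.104), and the adjusted p was 0.0424 with the replicate number as a block.

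Hdac1 (chromosome 4, 129516104 to 129542713, minus strand) encodes the enzyme that shares complexes with HDAC2. Its levels were 6102, 6224, 5309 and 6200 normalized counts per control library and 5420, 5285 and 5233 per knockout library. Knockout libraries lay close together and below 3 of the 4 controls, and control replicate 3, which was also the library with the most microglia and fibroblast markers, overlapped with them. The log2 fold change was -0.17 (SE 0.068, 95% confidence interval -0.32 to -0.0079), with an adjusted p of 0.120 by edgeR's quasi-likelihood test. Without control replicate 3 it was -0.22 with an adjusted p of 0.0223, and without control replicates 3 and 4 it was -0.22 with an adjusted p of 0.0467 by the same edgeR test. A pseudogene, Gm10093, matches the Hdac1 transcript over 1444 bases at 99.4% identity, and it held 54 to 111 counts per library against 3002 to 7688 for Hdac1. Gm4864 (94.6% over 1469 bases) and AC125456.1 (96.3% over 1450 bases) also match it and are not in the count data. The study counted unique hits, so reads that fit Hdac1 and a copy equally may be missing from both. Whether this lowers the Hdac1 level per kilobase was not tested.

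Taken as a ratio, the pair separated the groups, although the test did not pass after adjustment. Per kilobase of exon, the ratio of Hdac1 to Hdac2 was 1.11, 1.13, 1.03 and 1.23 in the control libraries, as against 0.852, 0.818 and 0.879 in the knockout libraries. All control libraries had more Hdac1 than Hdac2 per kilobase and all knockout libraries had less, without overlap. The mean log2 ratio went from 0.17 ± 0.10 (SD, n = 4) to -0.24 ± 0.05 (SD, n = 3), a difference of -0.40. An exact two-sided permutation test gave p = 0.0286, the smallest that 4 against 3 libraries allow, and p = 0.0571 after Benjamini-Hochberg adjustment over the 4 ratios compared. A ratio within a library does not depend on how the libraries were scaled, and the difference between groups does not depend on the exon lengths used. Which of the pair is higher does depend on them: by normalized counts, not divided by length, Hdac2 was above Hdac1 in all 7 libraries. The difference was -0.44 to -0.36 when any 1 library was left out and -0.36 as the mean of the 3 within-pair differences of same-numbered libraries.

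**Figure D2:**
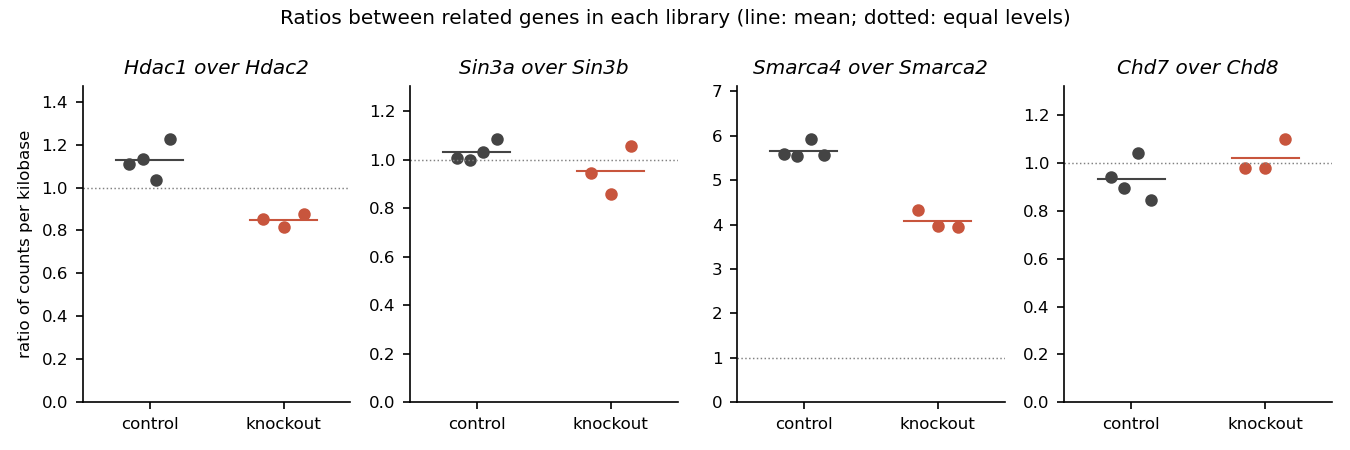
Ratio of counts per kilobase of exon between related genes (y axes, starting at 0), 1 point per library with a line at the group mean of the ratios and a dotted line at equal levels. Hdac1 over Hdac2 lies between 1.03 and 1.23 in the controls and between 0.818 and 0.879 in the knockouts, and Smarca4 over Smarca2 between 5.54 and 5.93 and between 3.95 and 4.34, whereas the groups overlap for Sin3a over Sin3b and Chd7 over Chd8.

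Hdac3, the catalytic subunit of NCoR corepressor complexes, stood at 3347, 3349, 3069 and 3107 normalized counts in the control libraries, and the knockout libraries held 3479, 3378 and 3492. The groups did not overlap, but the lowest knockout library (3378) was close to the highest control library (3349). Its log2 fold change was 0.10 (SE 0.054, 95% confidence interval -0.026 to 0.23, adjusted p = 0.227 by edgeR's quasi-likelihood test). Hdac11 (chromosome 6, 91156665 to 91174692, plus strand), the lone class IV deacetylase, was the most variable of the 10. It had 997.8, 1248, 1044 and 1047 normalized counts per control library and 1016, 1356 and 811.9 per knockout library, so that the highest and the lowest library of all were both knockouts. Its log2 fold change of -0.03 (SE 0.17, 95% confidence interval -0.43 to 0.37, adjusted p = 0.924 by edgeR's quasi-likelihood test) changed sign under 7 of 18 alternative settings, among them other library scalings.

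Of the scaffold genes, Sin3b rose and Sin3a did not pass the test. Sin3b (chromosome 8, 72723285 to 72758201, plus strand) had 3112, 3189, 3299 and 3031 normalized counts in control replicates 1 to 4, against 3717, 3870 and 3522 in knockout replicates 1 to 3. The groups did not overlap, and as for Hdac2 the highest level was in knockout replicate 2 and the lowest in control replicate 4. Its mean went from 3158 ± 114 (SD, n = 4) to 3703 ± 174 (SD, n = 3), 117% of the control, with a log2 fold change of 0.23 (SE 0.055, 95% confidence interval 0.10 to 0.36, adjusted p = 0.0237 by edgeR's quasi-likelihood test). With the replicate number as a block the log2 fold change was 0.21 and the edgeR call was lost (adjusted p = 0.0753), as it was without knockout replicate 1 (0.0600), without knockout replicate 2 (0.0871) and without control replicates 3 and 4 together (0.0720).

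Sin3a, the paralog (chromosome 9, 57072040 to 57128366, plus strand), stood at 2298, 2332, 2495 and 2409 normalized counts in the control libraries, and the knockout libraries held 2571, 2435 and 2727. Knockout replicates 1 and 3 were above all controls, and knockout replicate 2 lay within their range. Its log2 fold change was 0.11 (SE 0.059, 95% confidence interval -0.026 to 0.25, adjusted p = 0.218 by edgeR's quasi-likelihood test). The ratio of Sin3a to Sin3b per kilobase was 1.01, 0.999, 1.03 and 1.09 in the control libraries, as against 0.945, 0.859 and 1.06 in the knockout libraries, and knockout replicate 3 overlapped with the controls. Its mean log2 difference was -0.12 (exact two-sided permutation test, p = 0.200, also after adjustment over the 4 ratios), and it was -0.045 without knockout replicate 2 and -0.19 without knockout replicate 3.

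None of the 4 remodeler genes passed the test. Smarca4 (chromosome 9, 21616169 to 21704230, plus strand), which encodes the SWI/SNF ATPase BRG1, had 11850, 13450, 12530 and 10330 normalized counts per control library and 12260, 14460 and 11310 per knockout library. The knockouts lay around the control range, with the highest library among them and the lowest among the controls. Its log2 fold change was 0.07 (SE 0.11, 95% confidence interval -0.19 to 0.34, adjusted p = 0.689 by edgeR's quasi-likelihood test), and -0.03 without knockout replicate 2. Smarca2, which encodes BRM, the alternative ATPase of the same complexes, rose from 4680, 5352, 4658 and 4085 normalized counts in the controls to 6229, 8029 and 6312 in the knockouts, by 0.55 on the log2 scale (SE 0.12, adjusted p = 0.0166 by edgeR's quasi-likelihood test), a call lost without knockout replicate 2 (0.0511) and without control replicates 3 and 4 together (0.0820). Their ratio per kilobase separated the groups, with 5.58, 5.54, 5.93 and 5.57 parts of Smarca4 to 1 of Smarca2 per control library and 4.34, 3.97 and 3.95 per knockout library. The geometric mean of the ratio was 5.65 in the controls and 4.08 in the knockouts, a log2 difference of -0.47 (group SDs of the log2 ratio 0.05, n = 4, and 0.08, n = 3; exact two-sided permutation test, p = 0.0286, adjusted 0.0571).

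Chd7 (chromosome 4, 8690406 to 8867659, plus strand) encodes a CHD remodeler that acts with SOX10 in myelinating cells. It had 5884, 5519, 5608 and 4813 normalized counts in control replicates 1 to 4, against 5897, 6094 and 6675 in knockout replicates 1 to 3. The groups did not overlap, although control replicate 1 and knockout replicate 1 were almost equal. Its log2 fold change was 0.19 (SE 0.081, 95% confidence interval 0.0012 to 0.38), with an adjusted p of 0.135 by edgeR's quasi-likelihood test. Chd8 (chromosome 14, 52198151 to 52257723, minus strand), which encodes another remodeler of the same family, stood at 7303, 7198, 6292 and 6668 normalized counts in the control libraries, and the knockout libraries held 7054, 7270 and 7088, all 3 of which fell within the control range (log2 fold change 0.06, SE 0.064, 95% confidence interval -0.09 to 0.21, adjusted p = 0.584 by edgeR's quasi-likelihood test). Per kilobase, the ratio of Chd7 to Chd8 was 0.941, 0.895, 1.04 and 0.843 in the control libraries, as against 0.976, 0.979 and 1.10 in the knockout libraries, with a mean log2 difference of 0.13 (exact two-sided permutation test, p = 0.200, also after adjustment over the 4 ratios). Control replicate 3 overlapped with the knockouts in this ratio, and the difference was 0.076 without knockout replicate 3, 0.087 without control replicate 4 and 0.087 as the mean within same-numbered pairs.

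Ep400 (chromosome 5, 110664373 to 110770717, minus strand), which encodes the nucleosome-exchanging ATPase of the TIP60 complex, had 7494, 6844, 6297 and 7046 normalized counts per control library and 7148, 6642 and 7418 per knockout library. All knockout libraries fell within the control range. Its log2 fold change of 0.03 (SE 0.073, 95% confidence interval -0.14 to 0.20, adjusted p = 0.800 by edgeR's quasi-likelihood test) excluded neither a small decrease nor a small increase. Exons of Hdac11, Sin3a and Chd8 share bases with genes on the opposite strand. Hdac11 shares 594 bases, 15.4% of its exons, with Gm44002, which held 0 counts in every library, and Chd8 shares 824 bases, 5.12% of its exons, with Gm26590, which held 6 to 18 counts per library.

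**Figure D3:**
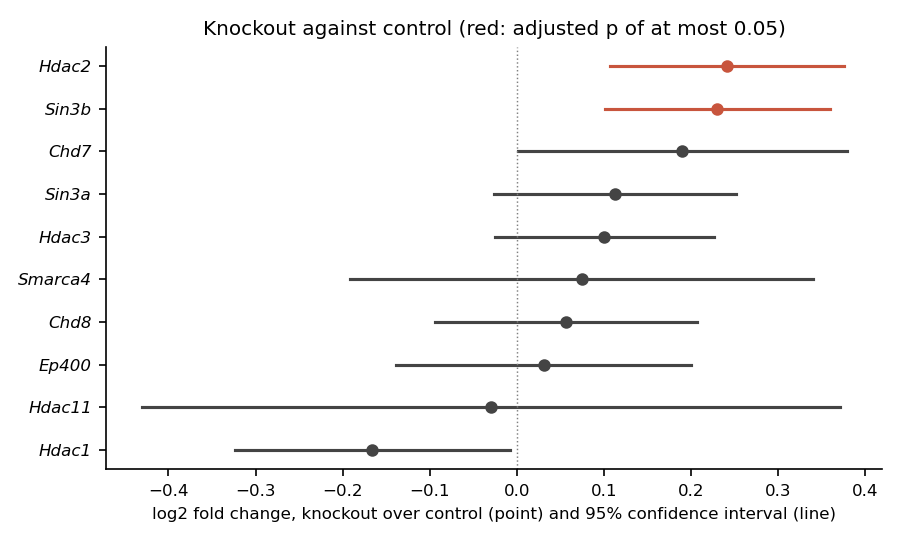
Log2 fold change of the knockout over the control (x axis) for the 10 genes, with lines for the 95% confidence interval and red for an adjusted p of at most 0.05. Hdac2 (0.24) and Sin3b (0.23) are the genes in red, Hdac1 (-0.17) is at the lower end, and the interval of Hdac11 is the widest (-0.43 to 0.37).

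The genes also differed in abundance, given here as normalized counts per kilobase of exon and per 1000000 counts. In the controls Smarca4 had the highest level (42.3 ± 4.62, SD, n = 4), followed by Hdac1 (39.4 ± 2.88), Hdac2 (34.98 ± 1.55) and Hdac3 (18.2 ± 0.854). Ep400 (11.3 ± 0.808), Sin3a (10.1 ± 0.371), Sin3b (9.77 ± 0.353), Chd8 (9.71 ± 0.668) and Chd7 (9.01 ± 0.753) formed a narrow middle range, and Hdac11 was lowest (6.41 ± 0.659). Neighbours in this order overlapped between libraries except at the steps from Hdac2 to Hdac3, from Hdac3 to Ep400 and from Chd7 to Hdac11. In the knockouts Smarca4 was still first (44.5 ± 5.67, SD, n = 3), but Hdac2 came next (41.3 ± 1.77) and did not overlap with Hdac1 (35.1 ± 0.638), which was followed by Hdac3 (19.5 ± 0.354). Sin3b (11.5 ± 0.539) stood beside Ep400 (11.5 ± 0.642), followed by Sin3a (10.9 ± 0.616), Chd7 (10.3 ± 0.668), Chd8 (10.1 ± 0.164) and Hdac11 (6.28 ± 1.63). Smarca4 was above 94.3% of all genes tested and Hdac11 above 63.6%.

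To place the 10 genes among their partners, 12 lists of deacetylases, sirtuins, corepressor complexes, remodelers and acetyltransferases were examined, with 144 genes in all, the 10 included. Of these 28 rose (19.4%, beside 11.6% of all genes) and 11 fell (7.64%, beside 12.2%), with a median log2 fold change of 0.08. Without the 10 genes, 26 of 134 rose (19.4%) and 11 fell (8.21%). Without knockout replicate 2, 7 of the 144 rose (4.86%, beside 4.57% of all genes tested in that fit), so that the share was then close to that of all genes. It was 12 genes (8.33%, beside 6.35%) without knockout replicate 1 and 12 (8.33%, beside 6.26%) without control replicates 3 and 4 together, and the number that fell was 4 and 7 without knockout replicates 1 and 2, 7 without knockout replicate 3 and 5 without control replicate 4. Of the 144, 3 passed both the test and a log2 fold change of 1, all upwards and all in the BAF list, and Chd5 of the NuRD and CHD lists, named after its values were seen, had a log2 fold change of 1.498 with an adjusted p of 0.0516 by edgeR's test.

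Of the 11 catalytic deacetylase genes 3 rose (27.3%, beside 11.6% of all genes) and 1 fell (9.09%, beside 12.2%). The number that rose was 2 (18.2%) without knockout replicate 1 or 2, beside 6.35% and 4.57% of all genes. It was also 2 with library totals alone or without the filter on low counts. The number that fell was 2 without control replicate 1 or 3, and 0 without knockout replicate 1. Hdac4, a class IIa deacetylase, rose from 1892, 1885, 1629 and 1293 normalized counts in the controls to 2665, 2923 and 2709 in the knockouts, by 0.72 on the log2 scale (adjusted p = 0.00892 by edgeR's quasi-likelihood test). Hdac6, a cytoplasmic deacetylase of tubulin, rose by 0.48 (adjusted p = 0.00697 by edgeR), from 837.8 to 987.5 normalized counts in the controls to 1226 to 1347 in the knockouts. Hdac9, another class IIa gene, fell by 0.44 (adjusted p = 0.00892 by edgeR), from 1784, 1650, 1547 and 1892 to 1249, 1255 and 1299, a call that was lost without knockout replicate 1 (0.0518). The log2 fold changes of Hdac4, Hdac6 and Hdac9 were of a larger size than those of Hdac1, Hdac2, Hdac3 and Hdac11, a difference that was not tested. Since Hdac4, Hdac6 and Hdac9 were named for their small p, this difference follows in part from that choice. The other genes of the list, named after their values were seen, had -0.44 (Hdac5), 0.04 (Hdac7), 0.22 (Hdac8) and 0.10 (Hdac10). Of the 7 sirtuin genes 1 fell (14.3%, beside 12.2% of all genes) and 0 rose (beside 11.6%). Sirt2, an abundant deacetylase of oligodendrocytes and myelin, fell from 86930 to 105200 normalized counts in the controls to 53780 to 58720 in the knockouts, by 0.79 on the log2 scale (adjusted p = 9.6e-04 by edgeR), alongside the fall of the oligodendrocyte markers.

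In the corepressor complexes, 3 of 21 SIN3 genes rose (14.3%, beside 11.6% of all genes) and 2 fell (9.52%, beside 12.2%), and Kdm5b alone rose without knockout replicate 1 or 2. Kdm5b, a demethylase of histone H3 associated with SIN3, rose by 0.52 on the log2 scale (adjusted p = 0.00463 by edgeR's quasi-likelihood test), from 4330 to 5358 normalized counts to 6729 to 7165, and the others that rose were Hdac2 and Sin3b. Arid4b (-0.23, adjusted p = 0.0185) and Sap18 (-0.25, adjusted p = 0.0273), both SIN3 subunits, fell by the same edgeR test, but kept the call in only 10 and 7 of 18 alternative settings. Arid4b lost it without control replicate 1 (0.0699) or 4 (0.0657) and without knockout replicate 1 (0.0784), 2 (0.0685) or 3 (0.0597), and Sap18 lost it with the replicate block (0.0596) and without any 1 library other than control replicate 3 (0.05003 to 0.110). In the NuRD list, Mta3 (-0.32, adjusted p = 0.0161) and the methyl-DNA binding Mbd2 (-0.36, adjusted p = 0.0217) fell by edgeR's test (13.3%, beside 12.2% of all genes). Hdac2 rose (6.67%, beside 11.6%), and 12 of 15 did not pass in the fit without a block. With the block 3 of the 15 rose (20%, beside 9.49% of all genes). Mta3 lost the call without control replicate 4 (0.0543) and knockout replicate 1 (0.0840), and Mbd2 lost it with the block (0.0516), without control replicate 4 (0.0607) and without knockout replicate 1 (0.0570), 2 (0.0820) or 3 (0.0755). Of the 11 CoREST genes 5 rose (45.5%, beside 11.6% of all genes) and 0 fell, with a median log2 fold change of 0.20, but the number that rose was 0 without knockout replicate 1, 0 without knockout replicate 2, 2 without control replicate 3 or 4, 3 without control replicate 1 or knockout replicate 3, 0 without control replicates 3 and 4 together, and 3 with the replicate block. It was 2 with DESeq2, 1 without the filter on low counts and 0 with library totals alone. The number that fell was 1 (Hdac1) without control replicate 3 and 1 without control replicates 3 and 4 together. The genes were Hdac2, Phf21a (0.28, adjusted p = 0.0486), Zmym2 (0.22, adjusted p = 0.0491), Rcor2 (0.42, adjusted p = 0.0281) and the demethylase Kdm1a (0.19, adjusted p = 0.0404 by edgeR), with Phf21a and Zmym2 named after their values were seen. Zmym2 kept the call in 3 of 18 alternative settings and lost it with the block (0.115), by DESeq2 (0.0527) and without any 1 library (0.0563 to 0.133), and Phf21a kept it in 7 of 18 and lost it by DESeq2 (0.0765) and without any 1 library other than control replicate 2 (0.0535 to 0.156). Rcor2 lost the call without knockout replicate 1 (0.0605) and knockout replicate 2 (0.101). Kdm1a kept it in 7 of 18 alternative settings and lost it with the block (0.0812), by DESeq2 (0.0951), without control replicate 2 (0.0676), 3 (0.0731) or 4 (0.0541) and without knockout replicate 1 (0.0942) or 2 (0.133). In the NCoR list, Tbl1x rose (0.30, adjusted p = 0.0266 by edgeR), and lost the call without control replicate 1 (0.0503) or 2 (0.0539) and without knockout replicate 1 (0.0513), 2 (0.0704) or 3 (0.0732).

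Among the remodelers, 10 of 28 BAF genes rose (35.7%, beside 11.6% of all genes) and Ss18 fell (3.57%, beside 12.2%). The number that rose was 1 (Ss18l1; 3.57%, beside 4.57% of all genes) without knockout replicate 2, 4 (14.3%, beside 6.35%) without knockout replicate 1 and 3 (10.7%, beside 4.51%) without the filter on low counts. It was 6 (21.4%) without control replicate 3 or 4, beside 9.54% and 9.47% of all genes, and 4 (14.3%, beside 6.26%) without both. Actl6b, an actin-like subunit of the neuronal form of the complex, rose by 2.39 on the log2 scale (adjusted p = 0.0129 by edgeR's quasi-likelihood test), from 171.5, 229.3, 116.6 and 47.74 normalized counts in the controls to 633.7, 1024 and 549.1 in the knockouts. Bcl11a, a zinc finger subunit, rose by 2.01 (adjusted p = 0.0128 by edgeR), from 1293, 1386, 706.4 and 386.6 to 3497, 4390 and 3477. Both were highest in knockout replicate 2 and lowest in control replicate 4, as were Hdac2, Sin3b and Smarca2. The same held for the sums of neuron markers (16020 and 4964) and of astrocyte markers (199500 and 80060). Actl6b and Bcl11a lost the call without knockout replicate 2 (0.0538 and 0.0514) and without the filter on low counts (0.0522 and 0.0643). Bcl11b, named here after its values were seen as the other gene past a log2 fold change of 1, rose by 1.85 (adjusted p = 0.0216 by edgeR) and lost the call without knockout replicate 1 (0.0513), without knockout replicate 2 (0.0814) and without the filter (0.0970).

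Ss18 and Ss18l1 encode alternative subunits, SS18 and the CREST protein of neurons. Ss18 fell from 6399 to 7093 normalized counts in the controls to 4953 to 5238 in the knockouts, by 0.40 on the log2 scale (adjusted p = 0.00324 by edgeR's quasi-likelihood test), and Ss18l1 rose by 0.78 (adjusted p = 0.00524), from 852.7 to 1154 to 1607 to 1873. The ISWI ATPase genes likewise differed in direction. Smarca5 fell by 0.35 (adjusted p = 0.00786 by edgeR), from 9154 to 10550 normalized counts to 7518 to 7756, while Smarca1 rose by 0.87 (adjusted p = 0.0033), from 396.6 to 513.1 to 784.5 to 893.6. Baz1a (-0.32, adjusted p = 0.0217) fell and Cecr2 (0.63, adjusted p = 0.0298) rose by the same edgeR test, but neither call was firm. Baz1a lost it without control replicate 4 (0.0651), knockout replicate 1 (0.104) and knockout replicate 2 (0.0814), and Cecr2 lost it with the block (0.100), without control replicate 4 (0.0661) and without knockout replicate 1 (0.0623), 2 (0.0530) or 3 (0.0889).

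Of the 18 genes of the EP400/TIP60 complex 5 rose (27.8%, beside 11.6% of all genes) and 0 fell. Without knockout replicate 2, 1 rose (Mbtd1; 5.56%, beside 4.57%), without knockout replicate 1, 3 rose (16.7%, beside 6.35%), and without control replicates 3 and 4 together, 2 rose (11.1%, beside 6.26%). The genes with the smallest p were Mbtd1 (0.54, adjusted p = 0.00922), Yeats4 (0.30, adjusted p = 0.0131) and Meaf6 (0.48, adjusted p = 0.0146) in edgeR's quasi-likelihood fit, and Ep400 itself did not pass. Yeats4 and Meaf6 lost the call without knockout replicate 2 (0.0532 and 0.0520). By the same edgeR test, 0 of 9 CHD genes passed in the fit without a block (3 at an unadjusted p under 0.05), but Chd3 and Chd5, which are also NuRD genes and are named after their values were seen, rose with the replicate block (22.2% of the list, beside 9.49% of all genes), by DESeq2, with upper quartile scaling and with the ribosomal covariate, and Chd5 alone rose by limma. Of the 11 INO80 and SRCAP genes 0 passed by edgeR, DESeq2 or limma with all libraries, and 0 had an unadjusted p under 0.05 in edgeR without a covariate. With the ribosomal covariate 1 had an unadjusted p under 0.05 in edgeR. Without control replicate 1, Srcap, named after its values were seen, rose (9.09% of the list, beside 10% of all genes). Of the 9 acetyltransferase genes, whose products oppose the deacetylases, 1 fell (11.1%, beside 12.2% of all genes) and 1 rose (11.1%, beside 11.6%). Kat2b fell by 0.55 (adjusted p = 0.00315 by edgeR), from 2231 to 2478 normalized counts to 1431 to 1670, and Kat6b rose by 0.60 (adjusted p = 0.00846), from 2051 to 2661 to 3423 to 3906.

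**Figure D4:**
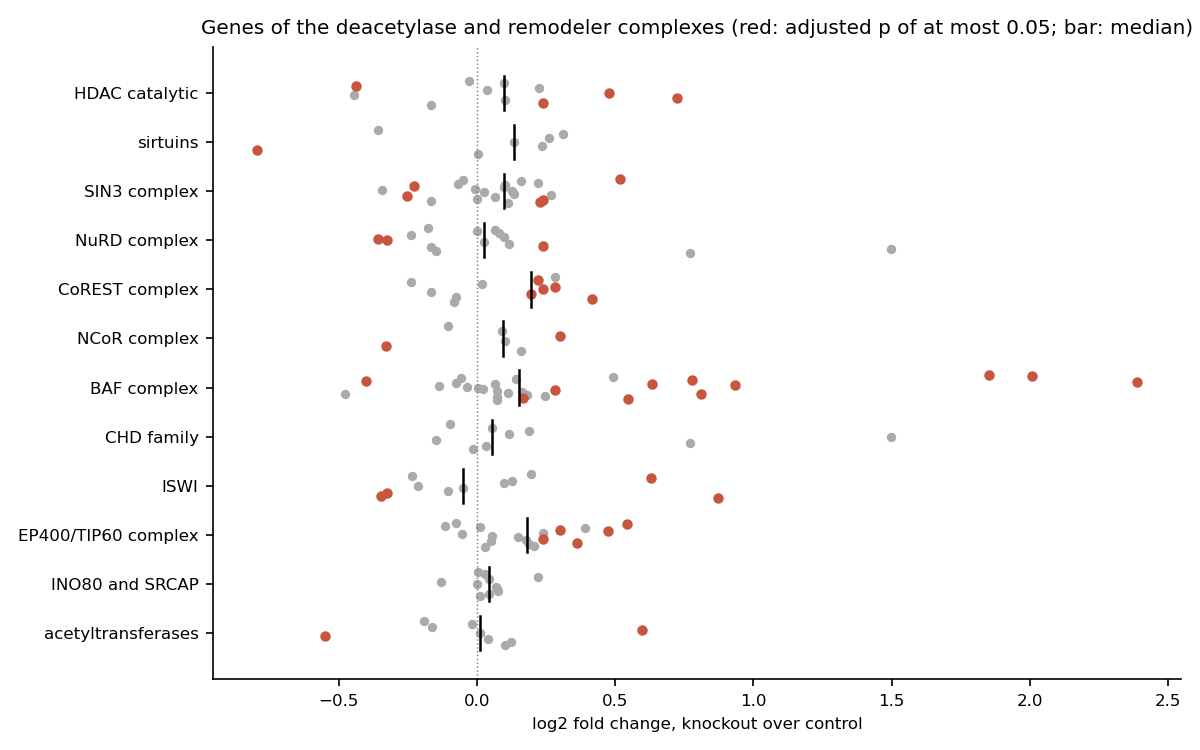
Log2 fold change of the knockout over the control (x axis) for the genes of 12 chromatin lists, 1 point per gene, red for an adjusted p of at most 0.05 and a bar at the median of each list. The BAF list reaches from -0.48 for its lowest gene to 2.39 for Actl6b, the CoREST and EP400/TIP60 lists have 5 genes in red each, all to the right of 0 (0 and 1 without knockout replicate 2), and the CHD list (2 with the replicate block) and the INO80 and SRCAP list have none.

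Factors known to bring these complexes to oligodendroglial genes were listed as well, 11 in number. Of these 2 fell (18.2%, beside 12.2% of all genes) and 0 rose (beside 11.6%). The fall of Klf13 was set by the design, which leaves Myrf as the observed call. Besides Klf13, the deleted gene (log2 fold change -3.69, SE 0.089, adjusted p = 6.8e-06 by edgeR's quasi-likelihood test), Myrf, the central regulator of myelination, fell from 26780 to 29360 normalized counts to 12350 to 12810, by 1.15 on the log2 scale (adjusted p = 4.2e-05). Klf9, the closest relative of Klf13 examined, had a log2 fold change of -0.23 (adjusted p = 0.140 by edgeR). Sox10 (-0.31, adjusted p = 0.207), Tcf7l2 (-0.29, adjusted p = 0.151), Zeb2 (0.11, adjusted p = 0.180), Zfp24 (-0.09, adjusted p = 0.403), Olig1 (-0.10, adjusted p = 0.458) and Nkx2-2 (0.19, adjusted p = 0.467) did not pass. Nor did Olig2 (-0.04, adjusted p = 0.887) and Yy1 (-0.12, adjusted p = 0.522), whose signs turned in the fit with the share of ribosomal RNA reads as a covariate, that of Olig2 also under other library scalings. In that fit Tcf7l2, whose product binds HDAC1 and HDAC2 in oligodendrocytes, had a log2 fold change of -0.42 with an adjusted p of 0.00558 by edgeR's test.

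Profiles across the 7 libraries were compared by the root mean square difference of centred log2 CPM (counts scaled to a common library size) between each of the 10 genes and the other 143 genes of the lists. This measure is 0 for identical profiles, and small values also arise between genes that vary little. Hdac2 was closest to Kdm1a (0.033) and Kat5 (0.048), and Sin3b was closest to the same genes (0.041 and 0.047), while their own profiles varied by 0.131 and 0.124 around their means. Hdac1 (own variation 0.109) had no neighbour below 0.07, the closest being Actl6a (0.076) and Kdm5a (0.080). Chd7 (0.134) was nearest to Ncor1 (0.058) and Epc1 (0.070), and Smarca4 (0.148) to Ruvbl2 (0.063) and Brd7 (0.064). For Hdac11 (0.221), Ruvbl2 (0.113) and Ing1 (0.131) came first. Sin3a (0.078) was about as far from its closest genes, Brd8 (0.071) and Ino80 (0.072), as its own variation. Hdac3 (0.068) was nearest to Rsf1 (0.029) and Bptf (0.031), Chd8 (0.073) to Dpf2 (0.041) and Kat6a (0.042), and Ep400 (0.082) to Pbrm1 (0.0091) and Gatad2b (0.034).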

How the data were processed

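Total RNA of 4 control and 3 knockout cultures had been sequenced by the authors. According to their methods and processing notes, reads were trimmed with Trimmomatic 0.36, aligned to GRCm38 with STAR 2.5.2b and counted within exons with featureCounts of Subread 1.5.2. The deposited values are whole-number counts per gene without normalization. Neither the annotation release nor the use of strand in counting is given in the sources used here. Symbols were found for 48970 of 49315 identifiers, and 49056 were found in GENCODE M21, of which 44858 had the same start and end there.

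Groups were taken from the labels. Counts were filtered with filterByExpr, scaled by TMM and tested with the quasi-likelihood test of edgeR 4.0.16 in R 4.3.3, with group as the term, robust dispersion and Benjamini-Hochberg adjustment over 18352 genes. Calls required an adjusted p no higher than 0.05, and a log2 fold change of 1 served as a second threshold. Normalized counts are counts divided by the effective library size and multiplied by the mean of these sizes. Ratios between related genes were compared by exact permutation tests over libraries. limma 3.58.1 and DESeq2 1.42.0, other scalings and filters, a covariate, a block and omitted libraries served as alternatives. The labels do not say whether replicates came from separate litters, and the p-values measure the spread between these libraries only.

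Deviations from the group means over genes had correlations of 0.113, 0.463 and 0.168 for the 3 pairs of same-numbered control and knockout libraries. Other pairs had -0.529 to 0.197, the highest being control replicate 4 with knockout replicate 1. The value of 0.463 joined control replicate 2 and knockout replicate 2, which both had a low share of ribosomal RNA reads (6.03% and 7.56%). The correlations cannot settle whether the numbers pair the samples, and no shared litter or day is stated. The block by replicate number therefore served only as an alternative that treats them as possible pairs.

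The 10 genes and the lists were chosen with earlier results of these data known. Genes named in the text are the 10, Klf13, Klf9, Smarca2 as the partner in a ratio, the recruiting factors, and in each list the 3 genes with the smallest p past the threshold in each direction, with the 2 closest profiles for each of the 10. Those named after their values were seen are marked as such. A gene that met this rule is not reported here. Promoter sequences are from RefSeq (GRCm38.p6), where 7 of the 10 genes had windows that were used. Intervals are 95% confidence intervals.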

Additional observations from a re-analysis of the deposited data

Results flagged for a closer look

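Of 62 values examined in the 4 control libraries, 3 had a library set apart from the others, that is with a gap to its nearest neighbour, divided by the whole range, above Dixon's critical value at the 95% level. Chance alone sets apart about 1 in 20 groups. The first was Hdac1, with 5309 normalized counts in control replicate 3 against 6102 to 6224 in the other controls (gap 0.867). The second was Kat2b, with 2478 normalized counts in control replicate 4 against 2231 to 2262 (gap 0.874), which moved this library further from the knockouts. The third was the ratio of Smarca4 to Smarca2 per kilobase, with 5.929 in control replicate 3 against 5.538 to 5.579 (gap 0.895).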

How the results depend on the processing

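Of 180 values of the 10 genes under alternative settings, 154 kept direction and side of the threshold, 11 lost the call, 2 gained it (Hdac1) and 13 turned sign, all 13 in genes that did not pass. The replicate block left 1 gene called (Hdac2) and changed no call of the 10 genes but that of Sin3b. With library totals alone or without the filter on low counts, 0 of the 10 rose (Hdac2 0.0524 and 0.0509, Sin3b 0.0565 and 0.0617), and 0 rose and 1 fell without control replicates 3 and 4 together, an alternative chosen after seeing the data. Omitting single libraries gave 0 to 2 that rose and 0 to 1 that fell. Among the 144 genes, 18 rose with library totals, 15 without the filter, and 12 rose and 6 fell without control replicates 3 and 4, while single omissions gave 7 to 25 that rose and 4 to 12 that fell. Over all genes 1489 fell and 1177 rose without control replicates 3 and 4, and single omissions gave 1254 to 2032 that fell (1254 and 1317 without knockout replicates 1 and 2) and 850 to 1843 that rose (1209 and 850 without the same). The ratio of Sin3a to Sin3b ranged from -0.19 to -0.045 when single libraries were omitted. Signs turned for Hdac11 (0.0039 with upper quartile scaling, 0.023 with totals, 0.031 without abundant genes, 0.093 with the ribosomal covariate, -0.25 to 0.14 over single omissions), Smarca4 (-0.031 to 0.16 over single omissions, -6.33e-05 without control replicates 3 and 4), Chd8 (-0.026 without both), Ep400 (-0.026 with the covariate, -0.013 to 0.086 over single omissions, -0.023 without both), Olig2 (0.00015, 0.0066, 0.026 and 0.14 in the first 4 settings named for Hdac11, -0.19 to 0.068 over single omissions) and Yy1 (0.00071 with the covariate). The cause was not tested. Each of the 10 genes had at least 563 counts in every library.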
